A study of Mus musculus with 24 samples.

Results

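A set of 43302 open-chromatin intervals was listed in mouse embryonic stem cells treated with an mTOR inhibitor (Paused) and overlapped no interval listed in untreated cells (Ctrl) by even 1 base. They made up 15.9% of the 272268 Paused intervals, and the other 228966 shared at least 1 base with a Ctrl interval. They were chosen by the presence or absence of an interval in the deposited tables, which is itself a readout of treatment, so nothing about treatment was tested with it. The Ctrl libraries have no value at these positions, and the tables were normalized separately, so absence from the Ctrl table says that no interval was listed there and not that the DNA was closed.

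E14 is a feeder-independent line of mouse embryonic stem cells, kept here on gelatin-coated plates with serum and the cytokine LIF. The lines were WT and the Smad2 knockout lines Smad2_KO1 and Smad2_KO2, called KO1 and KO2 below, each of which is 1 line in the labels. Paused cells received 200 nM of INK128 for 12 hours, Ctrl cells did not, and each of the 6 groups had 4 libraries of 50000 cells. The labels number the replicates but do not say whether they were separate cultures, so p-values measure the spread between these libraries, which may be technical.

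ATAC-seq uses the transposase Tn5 to cut and tag DNA that is not wrapped in nucleosomes. Promoters of active genes and enhancers bound by transcription factors are cut most. mTOR is the kinase that couples nutrients and growth factors to protein synthesis, growth and autophagy. Its inhibition puts embryonic stem cells into a slowly growing state that resembles diapause, the pause of the blastocyst before implantation. Smad2 carries the Nodal and Activin signal from receptor to chromatin, and Lefty1 and Smad7 are among its known targets.

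Reads recovered in the Paused intervals averaged 13.5 ± 1.42 megareads per WT library, 16.1 ± 0.918 per KO1 library and 15.4 ± 3.17 per KO2 library (SD, n = 4 each). The libraries of KO1 replicate 2 and KO2 replicate 2 differed by no more than sampling noise (chi-square per degree of freedom of 1.0013, with 1.0055 as the upper limit for pure counting error) although their labels differ, so the KO libraries may not be 8 independent samples. Over all library pairs the 4 closest were the 4 KO1 and KO2 libraries with the same number (1.0013, 1.0262, 1.0269 and 1.0737), which bears on every call in both clones and on every comparison between them. Results are given with each of these libraries left out where that matters. The embryonic stem cell markers were open: 7 of 8 marker genes had an interval inside them or within 1 kb, and their strongest intervals had a median of 458 normalized reads. The medians were 238 for primitive endoderm, 104 for trophoblast and 76.8 for fibroblast markers. All 9, 8 and 7 genes of these types had an interval too, so having one does not tell the cell types apart. The strongest interval was above 100 at 5 stem cell, 8 primitive endoderm, 5 trophoblast and 3 fibroblast genes. The part of other cell types in the results was not tested.

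Among the strongest intervals without a Ctrl counterpart were several at gene starts, and DNA just upstream of 6 such starts is printed to show what lies under them. The intervals of Zbtb45, Mybl2, B3gnt7 and Rps9 contain the RefSeq start (GRCm38.p6), and those of Eef1a1 and Cd68 lie wholly upstream of it. The letters are the part of each interval that lies before the start and within 250 bases of it, written along the gene's own strand. Capitals mark an E-box (CACGTG), an AP-1 site (TGANTCA) or an NF-Y box (CCAATCA), searched on both strands.
Zbtb45 (chr7:13009853-13010029, minus strand, 579 normalized reads): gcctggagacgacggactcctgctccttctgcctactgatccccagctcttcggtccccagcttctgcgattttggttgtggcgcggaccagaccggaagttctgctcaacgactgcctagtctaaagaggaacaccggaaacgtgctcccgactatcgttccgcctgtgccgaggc
Mybl2 (chr2:163054450-163054634, plus strand, 540 normalized reads): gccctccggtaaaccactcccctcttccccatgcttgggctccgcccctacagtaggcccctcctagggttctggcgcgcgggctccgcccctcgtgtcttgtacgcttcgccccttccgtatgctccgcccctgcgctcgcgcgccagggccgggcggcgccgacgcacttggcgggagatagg
B3gnt7 (chr1:86303120-86303220, plus strand, 491 normalized reads): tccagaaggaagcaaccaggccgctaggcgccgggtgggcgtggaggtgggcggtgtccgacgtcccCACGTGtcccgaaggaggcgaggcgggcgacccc
Eef1a1 (chr9:78481869-78481974, minus strand, 460 normalized reads): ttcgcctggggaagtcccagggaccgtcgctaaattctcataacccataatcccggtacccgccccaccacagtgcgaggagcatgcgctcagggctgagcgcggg
Cd68 (chr11:69666221-69666420, minus strand, 435 normalized reads): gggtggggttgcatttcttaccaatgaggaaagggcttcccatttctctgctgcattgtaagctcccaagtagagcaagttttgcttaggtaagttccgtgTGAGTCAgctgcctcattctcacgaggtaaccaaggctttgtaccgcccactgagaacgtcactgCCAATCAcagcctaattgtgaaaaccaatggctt
Rps9 (chr7:3703890-3704040, plus strand, 283 normalized reads): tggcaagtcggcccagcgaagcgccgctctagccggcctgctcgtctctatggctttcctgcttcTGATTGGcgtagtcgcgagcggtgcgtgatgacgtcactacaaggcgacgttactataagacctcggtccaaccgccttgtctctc
The Mybl2 and B3gnt7 stretches are rich in G and C (71.4% and 73.3%), and the Cd68 stretch is not (48.5%).

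Over all gene starts, 277 of the 21237 RefSeq promoter windows (250 bases before to 50 after a start) held at least 101 bases of an interval absent from Ctrl, and 8808 of a shared one only. The 277 windows held 59.1% G and C and a mean of 15.5 CpG dinucleotides, against 61.6% and 21.1 for all shared windows. Shared windows weighted to the same interval level held 58.1% and 15.3, close to the 277. The NF-Y box stood in 4.33% of the 277 windows, in 9.08% of all windows and in 11.7% of the level-matched shared windows. The AP-1 letters stood in 8.66%, 6.99% and 8.77% of the same sets, and the E-box in 5.78%, 7.84% and 8.81%. None of the 277 held the longer CLEAR box TCACGTGA of lysosomal genes, which 1.23% of all windows hold. The Foxh1, PPAR/RXR and CTCF letters were absent from the 277 as well (0.777%, 0.0471% and 0.0706% of all windows). The Tead letters stood in 5.78%, 3.37% and 3.98% of the same sets as above, the Klf letters in 5.78%, 3.63% and 4.34% and the Gata letters in 1.08%, 2.65% and 3.39%. Other motifs were counted and are not reported here. These counts describe letters in the windows and no binding.

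Most intervals absent from the Ctrl table were weak. Levels are the mean of the 12 Paused libraries in the deposited normalized reads. The median was 13.4 (quartiles 10.5 and 18.3, range 1.96 to 586), against 28.4 (quartiles 16.8 and 63.0) for intervals shared with Ctrl. Of Paused intervals at or below a level of 10, 44.7% had no Ctrl overlap. The share was 27.6% from 10 to 20, 7.12% from 20 to 50 and 0.845% above 400. The share fell with level in the Ctrl table too, from a higher start: 70825 of its 299780 intervals (23.6%) overlapped no Paused interval, 66.5% of those at or below 10, 35.7% of those from 10 to 20 and 0.675% of those above 400.

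**Figure D1:**
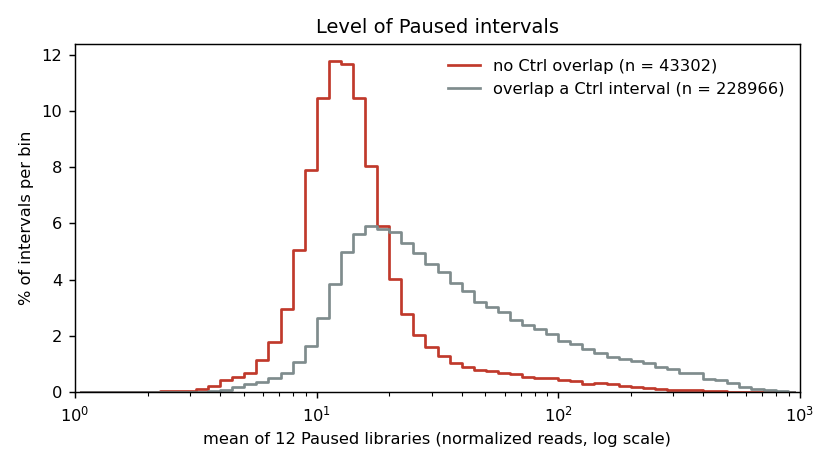
Distribution of the mean level over the 12 Paused libraries (x axis, normalized reads, log scale) for intervals without and with a Ctrl overlap (y axis, percent of each set per bin). The set without overlap peaks near its median of 13.4, and the shared set, with a median of 28.4, extends much farther to the right.

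**Figure D2:**
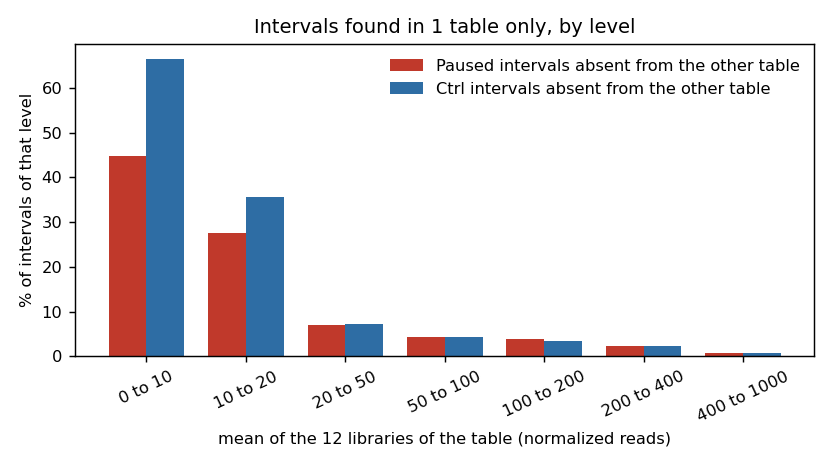
Percent of Paused intervals that overlap no Ctrl interval, and of Ctrl intervals that overlap no Paused interval, by the mean level in their own table (normalized reads). Both series of bars fall from 44.7% and 66.5% in the lowest class to 0.845% and 0.675% in the highest.

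The share of the signal in these intervals was larger in the knockout lines. In WT libraries they held 5.48% to 5.79% of the normalized reads (mean 5.69% ± 0.148, SD, n = 4), in KO1 6.30% ± 0.126 and in KO2 6.36% ± 0.135. All 8 KO libraries, at 6.16% to 6.45%, lay above all 4 WT libraries. The median interval of the set had 11.5 ± 1.08 normalized reads in WT, 14.6 ± 0.650 in KO1 and 14.4 ± 0.884 in KO2, and the shared intervals had 26.5 ± 1.25, 29.8 ± 0.925 and 29.9 ± 1.00. The line with the highest mean was WT at 22.5% of the intervals absent from Ctrl, KO1 at 37.6% and KO2 at 39.9%, where WT led at 34.9% of all shared ones. Among shared intervals of the same level the shares were 23.2%, 38.5% and 38.3%, close to those of the set. Depth moved with line as given above, and its part in this difference was not tested.

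Many of these intervals lay close to a Ctrl interval. The median distance was 969 bases (quartiles 367 and 2409, longest 235776), 7284 (16.8%) lay within 200 bases and 22080 (51.0%) within 1000. Of the nearest Ctrl intervals within 200 bases, 93.0% overlapped no Paused interval themselves, so that each table had its own interval side by side. Within 1 table, only 0.156% of the gaps between consecutive Paused intervals and 0.168% of those between Ctrl intervals were that short. How far this spacing accounts for the 93.0% was not tested. At the edge of the rule, the 730 intervals up to 10 bases away from a Ctrl interval had a median level of 16.3, and the 716 that overlapped one by up to 10 bases had 15.6. With at least 1000 bases of clear distance required, 21222 intervals were left.

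Strong intervals of the set usually had a close Ctrl interval. Of the 310 above a level of 200, 190 (61.3%) had a Ctrl interval within 500 bases, and in 100% of those cases the Ctrl interval was itself absent from the Paused table. Another 71 had their nearest Ctrl interval beyond 1000 and within 5000 bases, and 6 had it farther away. The mirror set in Ctrl had 237 intervals above 200, of which 171 (72.2%) had a Paused interval within 1000 bases, against 233 (75.2%) of the 310.

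**Figure D3:**
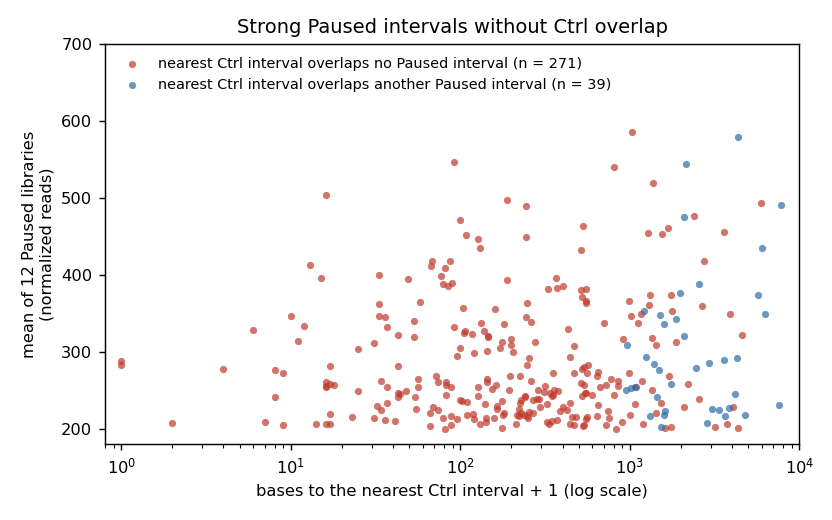
Each point is 1 of the 310 Paused intervals above 200 normalized reads without a Ctrl overlap, by the distance to the nearest Ctrl interval (x axis, bases plus 1, log scale) and its mean over 12 Paused libraries (y axis). Red points, whose nearest Ctrl interval overlaps no Paused interval, fill the left side, and only 6 points lie beyond 5000 bases.

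By nearest gene, the 10 strongest intervals were those of Hspa8, Zbtb45, Dcaf11, Gtpbp6, Mybl2, Rps19, Prdm10, Znfx1, Zmynd8 and B3gnt7, and none was called against WT in both clones. Hspa8 encodes the constitutive Hsc70 chaperone, which serves protein folding and chaperone-mediated autophagy. Its interval (chr9:40800986-40801186, 190 bases outside the gene) had 679, 573, 565 and 707 normalized reads in WT, 621, 538, 536 and 534 in KO1, and 572, 574, 549 and 578 in KO2. The lines overlapped, and the limma log2 changes of -0.17 (adjusted p = 0.105) and -0.14 (adjusted p = 0.185) did not pass. The nearest Ctrl interval, 1026 bases away, had a mean of only 30.3 normalized reads in the Ctrl libraries.

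Mybl2 (chr2:163054450-163054650) encodes the cell-cycle transcription factor B-Myb. Its interval, which spans the start printed above, had 624, 560, 492 and 563 in WT, 540, 557, 530 and 537 in KO1 and 518, 498, 498 and 566 in KO2. The groups overlapped (limma log2 change -0.04 and -0.10, adjusted p = 0.717 and 0.352), and the nearest Ctrl interval, 802 bases off, averaged 55.4. At Dcaf11 (chr14:55560443-55560643), which encodes a substrate receptor of a ubiquitin ligase, the picture was different: a Ctrl interval of 488 normalized reads lay only 90 bases from the Paused one of 547. Prdm10 (chr9:31280234-31280434), a zinc-finger factor gene, had a Ctrl interval of 424 at 15 bases from its Paused interval of 504.

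Only 6 of the 310 strong intervals had no Ctrl interval within 5000 bases, and they are named here after their values were seen. Their nearest genes were Zmynd8, B3gnt7, Cd68, Cyb5r1, Hsp90ab1 and Trim71. Zmynd8 encodes a chromatin reader, and its interval inside the gene (chr2:165819430-165819630) had 466, 459, 450 and 465 in WT, 555, 527, 513 and 461 in KO1 and 485, 534, 503 and 502 in KO2. All 4 WT values lay below all 4 KO2 values but overlapped KO1, and neither limma change passed (0.16 and 0.14, adjusted p = 0.134 and 0.197). The nearest Ctrl interval, 5890 bases away, averaged 8.47. B3gnt7, a glycosyltransferase gene, had its start interval at 488 ± 67.4 in WT, 504 ± 26.2 in KO1 and 481 ± 5.88 in KO2 (SD, n = 4).

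Cd68, a lysosomal membrane protein gene best known as a macrophage marker, had 475, 493, 520 and 497 in WT at the interval upstream of its start printed above. The KO1 libraries had 413, 413, 428 and 413, and the KO2 libraries 363, 404, 401 and 403. Every KO library lay below every WT library there. Hsp90ab1, which encodes the constitutive Hsp90 chaperone, had 377 ± 35.1 in WT, 336 ± 15.4 in KO1 and 335 ± 14.1 in KO2. Trim71, an RNA-binding gene of early embryonic cells, had 276, 258, 317 and 268 in WT, 196, 208, 204 and 193 in KO1 and 188, 202, 208 and 261 in KO2. One KO2 library (261) reached into the WT range and the other 7 KO libraries lay below it.

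Ribosomal protein genes recurred among the strong intervals, a group picked after the values were seen. Their products form the ribosome together with rRNA, and their translation is a classic target of mTOR. For each gene the strongest Paused interval inside it or within 1 kb was taken: it was absent from Ctrl at 15 of 68 ribosomal protein genes with an interval (22.1%) and at 844 of 17624 protein-coding genes (4.79%). Among strongest intervals above 200, the counts were 7 of 46 (15.2%) and 156 of 9650 (1.62%). The same count in the Ctrl table was 8 of 61 (13.1%) against 983 of 17780 (5.53%), with 0 of 32 above 200. No test was made of this group, and these genes have many near-identical copies in the genome, to which reads may map.

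The 7 ribosomal intervals above 200 lay at Rps19 (519), Rps18 (471), Rps20 (340), Rpsa (313), Rps9 (283), Rps10 (268) and Rpl10a (258). Around Rps18 a Ctrl interval of 469 lay 98 bases away. At the others the nearest Ctrl interval was weaker, from 16.8 at Rps19, 1367 bases away, to 109 at Rps20, 52 bases away. Rps19 (chr7:24884200-24884400) had 629, 502, 521 and 540 in WT, 516, 503, 476 and 504 in KO1 and 540, 511, 501 and 480 in KO2, and the lines overlapped (limma log2 change -0.13 and -0.11, adjusted p = 0.235 and 0.344).

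Rpsa, whose product is the small-subunit protein SA, had 397, 324, 316 and 375 in WT, 304, 296, 271 and 302 in KO1 and 293, 298, 275 and 301 in KO2. All 8 KO values lay below the WT values, and the fall passed limma's test in both clones (-0.26 and -0.27, adjusted p = 0.0305 and 0.0257). The Rps18 interval also fell in both clones (-0.24 and -0.29, adjusted p = 0.0216 and 0.00700 by limma). It lay 200 bases outside the gene (chr17:33951698-33951898), on the side away from the start at chr17:33955665, and so not at the promoter.

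Positions against GRCm38 protein-coding genes are given beside those of Paused intervals of the same level that overlap Ctrl, with no test. Inside a gene, away from its ends, lay 52.3% of the set, 47.3% of shared intervals and 47.2% of shared intervals weighted to the same level. Within 1 kb of a gene end lay 6.53%, 8.12% and 4.53%, in the same order. Between 10 and 100 kb from a gene lay 19.5%, 21.5% and 21.9%, and farther away 9.10%, 11.6% and 15.1%. The 310 strong intervals were otherwise placed, with 121 (39.0%) at a gene end, where 48.3% of strong shared intervals lay.

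Few intervals of the set lay at gene starts. For the 17491 genes with a listed start, 707 of the intervals (1.69% of those on chromosomes with listed starts, which leaves out chromosome 18) lay within 500 bases of a start, against 4.78% of shared intervals and 1.43% of level-matched ones. A start interval was listed in both tables for 11005 genes, in Paused only for 306, in Ctrl only for 387 and in neither for 5793. By chromosome, the X had the smallest share of Paused intervals without Ctrl overlap, 12.0% where its level distribution alone would give 17.2%, and chromosome 11 had the largest among autosomes, 17.5% against 15.3%. The WT and KO libraries are pooled in these shares.

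The genes with the most intervals of the set in or within 10 kb of them were Ctbp2, Camta1, Foxn3, Tiam1 and Cmip. Ctbp2, a transcriptional corepressor gene, had 31 of its 70 Paused intervals in the set, with levels from 5.31 to 89.3 and none called. Camta1, a calmodulin-binding activator gene, Foxn3, a forkhead gene, and Tiam1, a Rac exchange factor gene, had 29 each (of 153, 102 and 120), and Cmip had 27 of 99, of which 3 were called higher in both clones. Per length, the densest genes with at least 8 were Il18bp (8 of 12), Ung (10 of 16), Gm550, Nme2 and Ccdc97 (8 of 15 each). Ung encodes the uracil-DNA glycosylase that starts base excision repair. The strongest interval counted for it reached 254 but lay inside another gene, Alkbh2, within the 10 kb around Ung. In all, 13697 of 21883 genes had at least 1 interval of the set.

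Smad2 itself had 44 Paused intervals assigned to it, of which 10 were absent from Ctrl and 2 of those were called higher in both clones. The strongest of the 10 lay 84719 bases outside the gene and had 37.8, 46.2, 28.1 and 34.4 normalized reads in WT, 18.1, 31.7, 34.6 and 25.8 in KO1 and 22.0, 33.8, 33.7 and 29.5 in KO2. The lines overlapped (limma log2 change -0.42 and -0.29, adjusted p = 0.150 and 0.335), and an interval at that distance does not check the knockout.

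In the knockout lines, more of these intervals were higher than lower. Of the set, 38375 had at least 10 normalized reads in 4 or more libraries and were tested, and the 4927 others had a median level of 7.30. Weak intervals can pass that filter through the higher group alone: no WT library reached 10 at 1088 of the 3198 called higher below (34.0%), and no KO library at 21 of the 542 called lower. Of the tested ones, 3198 (8.33%) were higher in both clones than in WT, against 9.01% of all Paused intervals, and 542 (1.41%) were lower, against 4.92% of all. Shared intervals of the same level gave 8.13% and 2.52%. The share higher was thus near the background, and the share lower was below both. In single clones, 5769 (15.0%) were called in KO1 and 5758 (15.0%) in KO2, against 19.4% and 19.3% of all intervals. The KO1 calls were 4884 higher (12.7%, against 12.9% of all) and 885 lower (2.31%, against 6.56%). The KO2 calls were 4858 higher (12.7%, against 12.4%) and 900 lower (2.35%, against 6.86%). With KO1 replicate 2 left out 1954 were higher, with KO2 replicate 2 left out 1968. Single-clone counts fell to 3167 in KO1 without its replicate 2, to 3779 without its replicate 3, and to 3250 in KO2 without its replicate 2.

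All 8 KO libraries lay above all 4 WT libraries at 2721 intervals (7.09%, against 7.25% of all) and below them at 516 (1.34%, against 4.2%). With a call in both clones as well, there were 1894 (4.94%, against 5.52%) and 334 (0.870%, against 3.17%). No interval of the set differed between KO1 and KO2 by limma, edgeR or DESeq2 (0% of all intervals by limma), and 921 (2.4%, against 1.97% of all) had an unadjusted p under 0.05 in limma. The median log2 change was 0.25, that of level-matched shared intervals 0.26 and that of all tested intervals 0.12. Scaling moved the split: 85.5% of the calls were higher under the authors' scaling and 69.0% under DESeq2 size factors, and for all intervals 64.7% and 41.0%. The count tests on recovered reads, which differ in test, input and scaling together, gave 63.3% by edgeR and 52.4% by DESeq2. For all intervals they gave 37.9% and 26.8%. With size factors the median change of the set was 0.15 and that of all intervals 0.02. In the authors' deposited table, 6564 of the 43302 (15.2%) passed a false discovery rate of 0.05, of which 5138 had a positive and 1426 a negative fold, against 21.6% of all Paused intervals.

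Direction followed level, in the set and in shared intervals alike. At levels from 10 to 20, 2088 intervals were higher and 155 lower, from 50 to 100 105 and 110, and from 200 to 400 0 and 37. From 10 to 20, 8.27% of the set was called higher and 8.33% of shared intervals, and 0.614% and 1.85% lower. From 200 to 400 the shares higher were 0% and 1.16%, and the shares lower 13.3% and 19.5%. From 50 to 100 the shares lower were 6.98% and 7.20%, and the shares higher 6.66% and 9.52%. By position, 4.49% of the tested set at gene ends was higher and 2.56% lower, where shared intervals gave 4.00% and 8.63%. Inside genes the shares were 8.86% and 1.16%, and for shared intervals 10.1% and 4.69%. None of these differences between sets was tested.

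**Figure D4:**
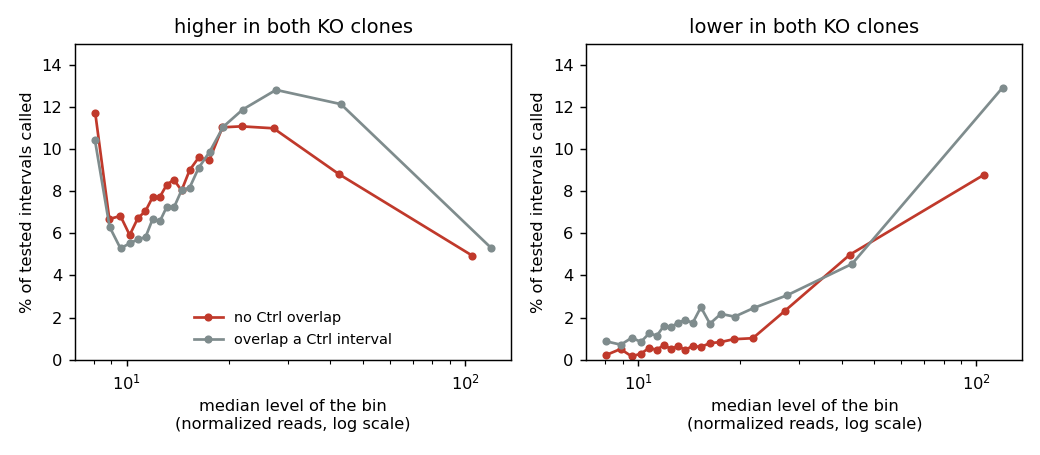
Percent of tested Paused intervals called higher (left) or lower (right) in both KO clones by limma, by the median level of the bin (normalized reads, log scale), for intervals without and with a Ctrl overlap. Bins follow the levels of the set without overlap and are drawn with 400 or more intervals of each kind. Below about 20 normalized reads the red line lies below the grey one for lower calls, and the 2 lines stay close for higher calls.

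The 5 largest rises were all at weak intervals, and no WT library reached 10 normalized reads at any of them, so they entered the test through the KO libraries. Dusp9, on the X chromosome, encodes a phosphatase that dampens ERK signalling in embryonic stem cells. An interval inside it (chrX:73641795-73641995) had 5.40, 5.37, 2.16 and 6.62 normalized reads in WT, 20.0, 39.9, 15.6 and 35.8 in KO1 and 23.0, 30.8, 23.6 and 27.4 in KO2. Every KO library exceeded every WT library, with limma log2 changes of 2.26 and 2.27 (SE 0.30 each, adjusted p = 1.48e-06 and 1.36e-06). Slc7a8, which encodes an amino acid exchanger, had an interval inside it (chr14:54735495-54735695) with 1.08, 1.07, 4.32 and 0.00 in WT, 16.2, 18.1, 10.4 and 8.94 in KO1 and 7.99, 13.5, 12.4 and 15.3 in KO2. It was close to empty in WT and above it in all KO libraries (2.66 and 2.57, adjusted p = 5.72e-05 and 9.75e-05 by limma). Intervals inside Wdpcp and nearest to Rp1l1 and Atl2 behaved alike, at 1.95 to 2.49 in WT and 13.3 to 15.8 in the clones.

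The 5 largest falls were nearest to Gabrg3, Lrrc8b, Ptchd1, Klf4 and Fdft1. At all of these but Lrrc8b no KO library reached 10, so the intervals entered the test only through the 4 WT libraries and drop out of it when any of those is left out. The Lrrc8b interval (chr5:105500413-105500613, 10.4 kb outside this ion channel subunit gene) had 36.7, 31.1, 110 and 84.8 in WT, 11.4, 9.06, 10.4 and 11.9 in KO1 and 11.0, 18.0, 11.2 and 9.85 in KO2. WT was above all KO libraries and uneven, with replicates 3 and 4 high (limma log2 change -2.32 and -2.14, SE 0.28 each, adjusted p = 3.48e-07 and 1.41e-06). The same WT replicates were the highest at Gabrg3 (54.0 and 47.7, against 11.9 and 11.8), at Fdft1 (37.8 and 50.3, against 17.3 and 12.9) and at Klf4, but not at Ptchd1, where WT had 11.9, 23.6, 30.2 and 17.2. Klf4, a naive pluripotency factor, is only the nearest gene, 203 kb from its interval (chr4:55735596-55735796), which had 17.3, 10.7, 32.4 and 26.5 in WT, 3.80, 1.81, 1.73 and 3.97 in KO1 and 3.00, 3.75, 6.74 and 5.47 in KO2.

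**Figure D5:**
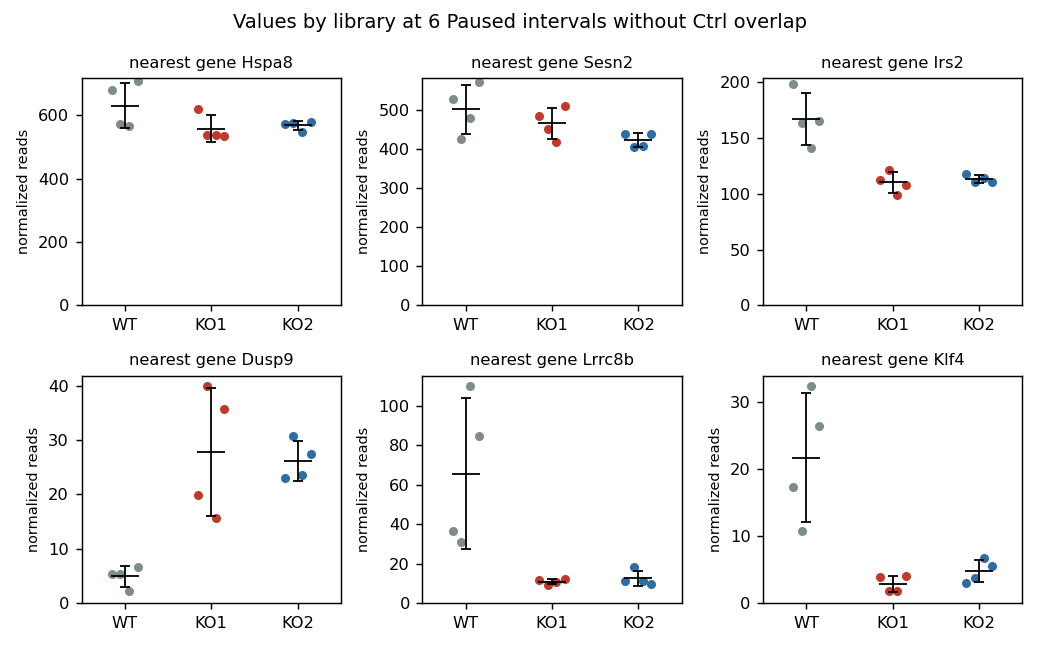
Normalized reads in each Paused library (points) at 6 intervals without Ctrl overlap, by nearest gene, for WT, KO1 and KO2; the bar is the mean and the whiskers the SD (n = 4), and each panel has its own axis from 0. Hspa8 and Sesn2 overlap between lines, Irs2 is lower in both clones, Dusp9 is higher in all 8 KO libraries, and Lrrc8b and Klf4 are lower with a wide WT spread.

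Where a Ctrl interval lay within 1000 bases, it was used to see how the untreated lines differed nearby. Of 1223 set members called higher with such a tested neighbour, 113 (9.24%) had a neighbour called higher in both clones in Ctrl, and 8 a lower one. Of 323 called lower, 89 (27.6%) had a neighbour called lower and 0 a higher one. In Ctrl as a whole, 3.95% of intervals were called higher and 3.20% lower, and near all tested members 2.77% and 3.62%. The median Ctrl change was 0.30 beside higher and -0.41 beside lower intervals. Ctrl and Paused libraries are separate samples of the same lines, and neighbours may share Tn5 cuts of 1 open region.

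Gene lists are read beside the 8.33% of all tested members that were higher and the 1.41% that were lower. Nodal pathway genes were the list with more falls than rises. Of the 39 tested of 41 intervals at 11 of 13 Nodal target genes, 1 was higher and 5 lower, with a median log2 change of -0.14, where the median of all tested members was 0.25. The 41 were 21.5% of the list's 191 Paused intervals, where levels alone would give 14.9%. Lefty1 encodes a secreted antagonist of Nodal. Its interval 826 bases outside the gene (chr1:180934096-180934296) had 58.3, 44.0, 60.4 and 59.6 normalized reads in WT, 28.5, 27.2, 29.4 and 30.8 in KO1 and 33.0, 27.8, 35.9 and 29.5 in KO2. All KO values were below all WT values (limma log2 change -0.91 and -0.79, adjusted p = 2.67e-04 and 0.00118).

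Smad7, the inhibitory Smad, had 10 members, of which 1 fell (26.9 ± 7.46 in WT, 15.9 ± 4.12 in KO1 and 15.8 ± 4.83 in KO2). The 1 rise was near Mixl1, an endoderm regulator, at 4.50 ± 1.39 in WT and 13.2 ± 2.99 and 11.6 ± 3.57 in the clones. No WT library reached 10 at Mixl1, so its interval entered the test through the KO libraries. The strongest member of the list lay in Tdgf1, the Nodal co-receptor gene (144 on average), and did not pass (limma adjusted p = 0.266 and 0.425). No member was found at Lefty2 or Cer1.

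PPAR receptors pair with RXR to switch on fatty acid uptake, storage and oxidation. Of 47 tested of 51 members at PPAR and fatty acid genes, 7 were higher (14.9%) and 0 lower, with a median change of 0.33. Over all Paused intervals of these genes, shared ones included, 31 were higher and 11 lower. The 7 lay at Ppara (2), Ppard, Pparg, Acsl1, Hadha and Slc25a20, and their levels were low, from 12.0 to 20.9. The Pparg interval, 25.3 kb outside this master regulator of fat storage (chr6:115515558-115515758), had 3.24, 6.44, 6.47 and 9.27 in WT, 16.2, 11.8, 15.6 and 17.9 in KO1 and 22.0, 18.0, 13.5 and 8.75 in KO2. One KO2 library lay inside the WT range (limma log2 change 1.21 and 1.17, adjusted p = 0.00768 and 0.00977). No WT library reached 10 at this interval, at the Hadha interval or at the Ppara interval inside its gene. These entered the test through the KO libraries. In Ppard (chr17:28272908-28273108) WT had 4.32, 6.44, 9.71 and 10.6, KO1 35.2, 17.2, 26.8 and 23.8 and KO2 22.0, 18.8, 15.7 and 10.9. All KO values were above all WT values (1.63 and 1.05, adjusted p = 1.21e-04 and 0.00915 by limma). The strongest member of the list was another interval in Ppard (chr17:28264410-28264610), which averaged 34.1. It did not pass in either clone (limma log2 change -0.23 and -0.18, adjusted p = 0.436 and 0.550).

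Pluripotency genes had many members. All 14 naive and core genes had at least 1, 119 in total, which was 23.2% of their 513 Paused intervals where levels alone would give 15.7%. Of 109 tested, 11 were higher (10.1%) and 1 lower (0.917%), near the shares of all tested members, with a median change of 0.30. At the rises assigned to Klf5, Nanog, Zfp42 and Nr5a2, and at 1 inside Esrrb (chr12:86370622-86370822), no WT library reached 10. These entered the test through the KO libraries. The interval 46.9 kb from Sox2, a core factor (chr3:34699229-34699429), had 24.8, 26.8, 20.5 and 29.1 in WT, 53.2, 52.6, 51.0 and 52.6 in KO1 and 53.9, 57.7, 69.6 and 48.1 in KO2. The groups did not overlap, and the rise passed in both clones (limma log2 change 1.03 and 1.15, adjusted p = 3.17e-05 and 6.94e-06). Klf4 had a member inside the gene that rose from 68.9 ± 19.6 to 101 ± 7.36 and 88.9 ± 5.33, in contrast to the distant interval above, and Esrrb, an orphan nuclear receptor gene, had 2 that rose and 1 that fell. The strongest member, in Nr5a2, averaged 206 and did not pass in either clone (limma adjusted p = 0.267 and 0.627).

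Formative and primed genes, which switch on as cells leave the naive state, had 80 members, 24.4% of 328 where levels would give 15.4%. Of 72 tested, 6 were higher (8.33%) and 3 lower (4.17%). A rise inside Dnmt3a (chr12:3849561-3849761) entered the test through the KO libraries, since no WT library reached 10 there. Dnmt3a, a de novo DNA methyltransferase gene, accounted for 4 of the rises. Its interval 5858 bases outside the gene (chr12:3795601-3795801) had 36.7, 40.8, 37.8 and 38.4 in WT, 72.2, 58.0, 64.8 and 65.6 in KO1 and 64.9, 60.0, 75.2 and 72.2 in KO2, a clear gap (limma log2 change 0.74 and 0.81, adjusted p = 3.60e-04 and 1.48e-04). Dnmt3b, its paralog, had a member inside the gene that fell from 246 ± 15.4 to 190 ± 13.8 and 188 ± 18.9 (-0.37 and -0.39, adjusted p = 0.00604 and 0.00424 by limma). The strongest member of the list lay inside Dnmt3a (chr12:3891728-3891928) and averaged 229. It did not pass in either clone (limma log2 change -0.04 and -0.10, adjusted p = 0.801 and 0.499).

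At mTOR component genes, 42 of 258 Paused intervals were absent from Ctrl (16.3%, with 16.7% from levels alone), and of 36 tested 2 were higher and 1 lower (8.33% called, against 9.75% of all tested members). The strongest lay 24 bases outside Eif4ebp1, the gene of the translation repressor that mTOR inactivates (chr8:27260203-27260403). It had 453, 366, 342 and 441 in WT, 382, 378, 429 and 435 in KO1 and 385, 412, 350 and 370 in KO2, with full overlap (limma log2 change 0.03 and -0.07, adjusted p = 0.861 and 0.601). A Ctrl interval of 118 lay 14 bases away. Inside Tsc1, which encodes a brake on mTOR, a member fell from 243 ± 44.4 to 188 ± 13.0 and 185 ± 10.2, and a weak one rose.

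Integrated stress response genes had 38 members of 174 intervals (21.8%, with 14.5% from levels), and of 33 tested 3 were higher (9.09%) and 2 lower (6.06%). Sesn2, a leucine sensor that restrains mTOR, had the strongest (chr4:132509667-132509867): 527, 426, 479 and 572 in WT, 486, 451, 419 and 510 in KO1 and 438, 406, 407 and 439 in KO2. KO2 passed and KO1 did not (limma log2 change -0.24, adjusted p = 0.0402, and -0.10, adjusted p = 0.425), and the groups overlapped. Both falls were in Slc3a2, the heavy chain of amino acid transporters. One of its intervals (chr19:8712939-8713139) went from 460 ± 39.8 to 331 ± 44.7 and 354 ± 42.5 (-0.48 and -0.38, adjusted p = 3.50e-04 and 0.00359 by limma).

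Lysosome and autophagy genes had 86 members of 363 intervals (23.7%, with 16.7% from levels), and of 78 tested 3 were higher (3.85%) and 1 lower (1.28%). Rises inside Atp6v0d1 entered the test through the KO libraries, since no WT library reached 10 there. Tfeb encodes the transcription factor that mTOR keeps out of the nucleus, and its strongest member averaged 328 ± 39.9 in WT, 270 ± 22.7 in KO1 and 316 ± 36.2 in KO2. It passed in KO1 alone (limma adjusted p = 0.0359 and 0.747). Inside Map1lc3b, which encodes the autophagosome protein LC3B, a weak member rose from 12.0 ± 3.96 to 26.6 ± 4.47 and 22.4 ± 4.27. Foxo and insulin receptor genes had 63 of 326 (19.3%, with 16.5% from levels), and of 60 tested 2 were higher and 2 lower (3.33% each). The strongest member of this list was assigned to Irs2, an adaptor of the insulin receptor, and lay 59384 bases outside the gene (chr8:10925197-10925397). It had 199, 163, 141 and 166 in WT, 112, 121, 99.3 and 108 in KO1 and 118, 111, 115 and 110 in KO2. All KO values were lower than all WT values (limma log2 change -0.59 and -0.55, adjusted p = 3.17e-04 and 7.77e-04).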

How the data were processed

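ATAC-seq was measured in 24 libraries, 12 per treatment. The submitters' processing notes name FastQC, Trim Galore, Bowtie2 2.4.1, MACS3 3.0.3, DiffBind 3.16.0 and mm10 (GRCm38), with no role or order. Handling of duplicates, the Tn5 shift and mitochondrial reads is not given in the sources used here. The library values deposited by the authors are normalized signal: whole reads divided by 1 factor per library, as read from the values. Nearly all intervals are 201 bases wide. The deposited Fold column is a log2 change and comes with the authors' p-value and false discovery rate columns, per the file headers.

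Intervals were compared by position, with 1 base of overlap counting as shared. KO against WT was tested with limma 3.58.1 (R 4.3.3) on log2(value + 1) over all Paused intervals with 10 or more in at least 4 libraries, without covariates. Fold changes are on that scale and understate changes of low intervals. P-values were Benjamini-Hochberg adjusted over the whole table, with a threshold of 0.05. The fit was tested on simulated data. Alternatives were edgeR 4.0.16 and DESeq2 1.42.0 on recovered whole reads, DESeq2 size factors, pseudocount 0.1, no filter, other overlap rules, KO libraries averaged by replicate number, a replicate block and each library left out.

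Same-level values weight shared intervals over 20 level bins. Genes are RefSeq protein-coding genes of GRCm38.p6, and an interval was assigned to the gene it lies in or the nearest within 100 kb. Named intervals are the 10 strongest, the 5 largest changes each way among those called in both clones, the strongest per gene list, and the genes with the most members. Some list members called in both clones are also named, and others are not reported here. The members and lists were chosen with earlier results of these data known.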

Additional observations from a re-analysis of the deposited data

Results flagged for a closer look

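In 3 of 93 groups of 4 libraries at the named intervals, 1 library stood far from the other 3, where chance would give about 4.65. At Hspa8, KO1 replicate 1 had 621.43 normalized reads and the other KO1 libraries 534.35 to 538.28. At Rp1l1, WT replicate 1 had 6.48 and the others 1.07 to 1.32. At Lrrc8b, KO2 replicate 2 had 18.0 and the others 9.85 to 11.23.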

How the results depend on the processing

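Of intervals absent from Ctrl, 3198 were higher in both clones, and this count was 699 by DESeq2, 1905 by edgeR, and 1869 when no Ctrl interval was allowed within 1000 bases, a rule that left 21222 intervals. Without 1 library it ran from 1954 to 3619. Higher and lower calls together covered 3.47% of tested members by DESeq2, against 8.89% of all tested intervals. By edgeR these shares were 7.85% and 14.5%, and with DESeq2 size factors 8.20% and 14.7%. With KO libraries averaged by replicate number they were 15.6% and 19.8%. The 542 lower became 895 with KO libraries averaged by replicate number, 1106 by edgeR, 977 with DESeq2 size factors, 206 with no Ctrl interval within 1000 bases and 832 when an overlap of at least 101 bases was needed to count as shared; without 1 library they ran from 363 to 649. Calls in KO1 (5769) were 2240 by DESeq2, 3174 with no Ctrl interval within 1000 bases and 3167 to 5988 without 1 library. Calls in KO2 (5758) were 2285, 3209 and 3250 to 6065 in the same order. The last rule and the omissions have fewer intervals or samples by construction, and the other causes were not tested. The median log2 change was 0.15 with size factors and 0.22 to 0.27 without 1 library. Calls at Ctrl neighbours ran from 827 to 1211 without 1 library, and calls between clones stayed at 0.

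With a replicate block, 3701 were higher, 661 lower, 6605 called in KO1, 6608 in KO2 and 0 between clones. Higher and lower calls together were then 11.4% of tested members, against 16.2% of all tested intervals. Libraries of the same number did not all deviate together over the lines (mean correlation 0.052). Between KO1 and KO2 the same-number correlations were all positive (0.089, 0.187, 0.034 and 0.111), and those pairs were also the closest libraries. The main fit took no account of the numbers. Whether same-numbered KO1 and KO2 libraries share a source was not tested, so calls in the clones may not be independent. Of 506 alternative values at 29 named intervals, 10 newly passed the threshold (Hspa8, Gtpbp6, Prdm10 and Znfx1) and 496 kept their side of it. No called change turned, but 15 values at 6 uncalled intervals (B3gnt7, Dcaf11, Dnmt3a, Eif4ebp1, Nr5a2 and Zbtb45) changed sign, all at most 0.0911 from 0 on the log2 scale. Gabrg3, Ptchd1, Klf4 and Fdft1 have no value without a WT library, since they then fall under the filter. Intervals of the set had a median of 8 to 20 recovered reads per library, which limits what they can show.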
